A study of Mus musculus with 4 samples.

Results

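The regions described here are stretches of open chromatin that were called in NMuMG cells kept in complete medium, both with vehicle and with TGFβ, and that had no counterpart in cells deprived of serum and insulin. They were chosen on their presence in 3 peak lists, from which intervals under 150 bp had been removed and in which neighbours less than 1000 bp apart had been joined. A region of the TGFβ list became a member when it overlapped a region of the vehicle list by at least 1 bp and no region of the 10 min list. This gave 1689 members of the 38532 TGFβ regions. Seen against the 18348 TGFβ regions that the vehicle list also held, the members made up 9.21%, and the remaining 16659 were present in all 3 lists. Membership is therefore a property of the selection and not a result.

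NMuMG is an immortal line of epithelial cells from the mouse mammary gland, and its open chromatin was profiled with the Tn5 transposase (ATAC-seq). In complete medium, which contained serum and insulin, cells received vehicle or TGFβ1 at 5 ng per ml for 2 h. In the other experiment cells spent 6 h without serum and insulin and then received vehicle or TGFβ1 at 5 ng per ml for 10 min. Each condition was a single sample. Both 10 min samples point to 1 common list, so vehicle and TGFβ could not be told apart at that time, and for the TGFβ sample of that pair a label field gives 2 h whereas its title and protocol give 10 min. The 10 min list differed from the other lists in medium, in time and in library at once, and these cannot be told apart. The lists carry no read counts, so the number of reads behind a single call is not given. The supplement to the study lists the reads of each library. Each 10 min library kept fewer reads after filtering than either complete-medium library. Whether the 10 min list came from 1 of them or from both is not given, so the depth behind it is not known and may differ too. The 10 min list was not the smallest, with 26732 regions of median width 544 bp. The vehicle list had 19648 (428 bp) and the TGFβ list 38532 (379 bp). Absence from the 10 min list means that no peak was retained there, not that the chromatin was closed. With 1 list per condition there was no test over samples. Differences between classes of regions are given in percentage points with a 95% interval (Newcombe), and shares with a 95% Wilson interval. These cover the counting of regions alone, and neighbouring regions are not independent.

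The identity of the cells was looked up first. Of 13 epithelial marker genes, the vehicle list had a region at the transcription start site (TSS) of 5 (Krt8, Krt18, Krt19, Grhl2 and Elf3), the TGFβ list of 6 and the 10 min list of 6. Of 11 markers of other cells (blood, endothelium, liver, muscle, nerve, fat and stroma), only Kdr, in the TGFβ list, had one. Cdh1 had a region at its TSS in the 10 min list and in neither complete-medium list.

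As background, the accessibility of an enhancer depends on the transcription factors that occupy it. AP-1, formed by JUN and FOS proteins, and SRF, which binds the CArG box, answer to growth factors in serum. TEAD proteins bind DNA with the coactivators YAP and TAZ, whose presence in the nucleus is also promoted by serum and by mechanical tension. SMAD3 and SMAD4 carry the TGFβ signal, and CTCF marks insulators and domain borders. A motif in a sequence is a place where such a factor could bind and does not show that it did.

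The members with the highest scores that hold one of the motifs discussed here near their centre are shown to give these elements a face. Each line gives 120 bp about the centre of a distal member in build mm9, plus strand, 5′ to 3′, named by its nearest protein-coding gene. Capitals mark matches on either strand to TEAD (ACATTCC), AP-1 (TGACTCA or TGAGTCA), SMAD (CAGACA or GTCTAGAC) and the CArG box of SRF.
Tbl1xr1 distal, chr3:21306175-21306294: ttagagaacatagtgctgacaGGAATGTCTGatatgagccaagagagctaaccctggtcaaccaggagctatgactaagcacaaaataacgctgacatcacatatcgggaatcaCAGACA
Vgll3 distal, chr16:66272858-66272977: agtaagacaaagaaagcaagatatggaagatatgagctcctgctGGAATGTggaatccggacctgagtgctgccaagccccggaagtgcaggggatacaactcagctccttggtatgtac
Sh3bgrl intron, chrX:106337717-106337836: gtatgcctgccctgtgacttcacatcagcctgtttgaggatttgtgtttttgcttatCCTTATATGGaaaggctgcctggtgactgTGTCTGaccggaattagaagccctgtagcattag
Fign distal, chr2:63763991-63764110: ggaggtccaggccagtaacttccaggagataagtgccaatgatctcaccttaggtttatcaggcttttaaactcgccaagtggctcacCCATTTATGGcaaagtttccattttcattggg
Fam189a1 intron, chr7:72052034-72052153: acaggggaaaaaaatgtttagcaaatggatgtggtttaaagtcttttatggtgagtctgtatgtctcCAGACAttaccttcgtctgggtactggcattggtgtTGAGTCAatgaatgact
Ppargc1a distal, chr5:51582082-51582201: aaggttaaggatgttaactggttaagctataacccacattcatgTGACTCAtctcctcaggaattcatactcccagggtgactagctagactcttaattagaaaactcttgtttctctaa
Gm9742 distal, chr13:7720800-7720919: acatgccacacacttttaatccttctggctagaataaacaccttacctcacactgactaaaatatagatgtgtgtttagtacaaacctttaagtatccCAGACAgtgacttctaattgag

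In the Tbl1xr1 and Vgll3 windows the TEAD match lies on the minus strand and so reads GGAATGT, and in the former it shares its last letters with a SMAD match, TGTCTG. The Sh3bgrl and Fign windows carry a CArG box, the Fam189a1 window an AP-1 and a SMAD match, the Ppargc1a window an AP-1 match and the Gm9742 window a SMAD match. Over all distal TGFβ regions, whether members or not, 10.6% had a TEAD match, 41.2% an AP-1 match, 40.2% a SMAD match and 2.19% a CArG box within 200 bp of their centre. All 7 had the top score of 1000 in the TGFβ list. Their widths there were between 434 and 588 bp, and the nearest 10 min region was from 4612 to 709538 bp away. The Sh3bgrl and Fam189a1 regions lie in introns and the other 5 between genes, the Tbl1xr1 region 669104 bp from the nearest protein-coding TSS.

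The first members at a protein-coding TSS, in the order of the scores, were those of Cald1 and 2310016M24Rik. They are shown over 300 bp in the same way.
Cald1 TSS, chr6:34548277-34548576: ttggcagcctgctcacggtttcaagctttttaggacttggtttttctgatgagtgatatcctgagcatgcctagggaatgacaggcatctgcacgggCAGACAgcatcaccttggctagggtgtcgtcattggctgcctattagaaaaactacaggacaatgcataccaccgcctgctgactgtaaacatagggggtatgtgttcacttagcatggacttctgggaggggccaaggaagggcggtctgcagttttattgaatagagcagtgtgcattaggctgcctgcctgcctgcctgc
2310016M24Rik TSS, chr15:99555022-99555321: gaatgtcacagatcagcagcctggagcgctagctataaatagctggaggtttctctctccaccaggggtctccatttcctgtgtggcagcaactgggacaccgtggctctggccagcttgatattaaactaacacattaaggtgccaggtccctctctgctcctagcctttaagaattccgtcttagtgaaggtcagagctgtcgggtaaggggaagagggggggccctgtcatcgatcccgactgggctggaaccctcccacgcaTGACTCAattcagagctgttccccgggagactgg

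Here the capitals mark a SMAD match at Cald1 and an AP-1 match at 2310016M24Rik. The window of 400 bp used for all counts also held a CArG box at Cald1 and a SMAD match at 2310016M24Rik. Both lie outside the 300 bp shown.

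By the rule no member overlapped a 10 min region. The nearest 10 min region was at a median distance of 16833 bp (quartiles 5527 and 44242 bp). It was more than 100 kb away for 194 members, under 5000 bp for 386 and under 1000 bp for 32, and the smallest distance was 33 bp. Just inside the rule, 9 members had a 10 min region within 200 bp and 3 overlapped a 10 min interval that was too narrow to be kept. Just outside it, the smallest overlap of an excluded region with the 10 min list was 126 bp. On the vehicle side the smallest overlap was 27 bp, and for 1680 of the 1689 members it covered at least 50% of the shorter region. Each member had a vehicle region of its own, and for 7 members that vehicle region touched a 10 min region.

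Members were narrow regions of intermediate score. The score is the authors' scaled irreproducible discovery rate, which runs from 540 to a cap of 1000 and by construction is higher for peaks that rank alike in the pair of inputs compared. The methods and design text speak of duplicates, whereas the labels give 1 sample for each condition, so what the pair was for these lists could not be settled. The median width of members in the TGFβ list was 354 bp (quartiles 260 and 491 bp, range 150 to 2488 bp), compared with 572 bp for regions of all 3 lists and 267 bp for regions of the TGFβ list alone. Their median TGFβ score was 916. The cap was reached by 37.2% of members (35.0 to 39.6%), by 75.0% (74.4 to 75.7%) of regions of all 3 lists and by 9.40% (8.92 to 9.90%) of TGFβ-only regions. The members thus lay between these classes in width and score. In the vehicle list their median width was 292 bp and their median score 673, compared with 466 bp and 951 for regions of all 3 lists. There 90 members reached the cap (5.33%, 4.36 to 6.50%), compared with 44.4% (43.7 to 45.2%). Members were wider with TGFβ than with vehicle in 66.4% of cases, with a median ratio of 1.15. This was not particular to them, since regions of all 3 lists were wider in 66.1%, with a median ratio of 1.11. In all, members covered 715 kb, and 91.5% consisted of a single interval.

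**Figure D1:**
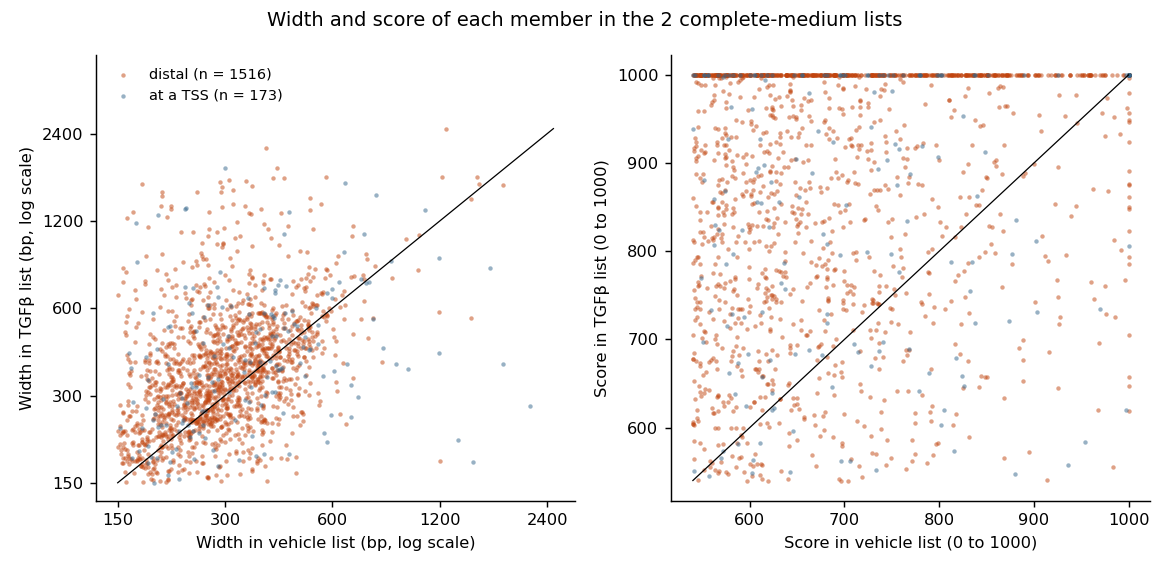
Each point is 1 of the 1689 members, with its width (left, bp on log axes) and its score (right, authors' scale) in the vehicle list on the x axis and in the TGFβ list on the y axis; colours separate the 1516 distal members from the 173 at a TSS, and the line marks equal values. Most points sit above the line of equal width (66.4%), and 629 members lie on the TGFβ score cap of 1000.

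The share of regions of both complete-medium lists that was missing at 10 min fell with their width and score in steps. A wider region has more bases with which to overlap a 10 min region, so part of the fall with width can come from the rule. How large that part is was not tested. Among regions of 150 to 249 bp in the TGFβ list 28.2% were missing (25.8 to 30.7%), among those of 350 to 499 bp 11.2% (10.3 to 12.2%) and among those of 750 bp or more 2.68% (2.27 to 3.15%). Over the vehicle score the share fell from 28.9% (26.6 to 31.2%) at scores of 540 to 599 to 1.20% (0.979 to 1.47%) at the cap. Over the TGFβ score it fell from 36.6% (30.9 to 42.7%) to 4.79% (4.44 to 5.17%). Both declines went down at each step, and they were seen at the TSS and away from it. Each 10 min library had fewer reads than either complete-medium library, but the depth behind the 10 min list is not known. The part of depth in these declines was not tested. In contrast, 54 members were at the cap in both complete-medium lists and at least 350 bp wide. They were 0.833% (0.639 to 1.08%) of the 6486 regions with these properties.

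**Figure D2:**
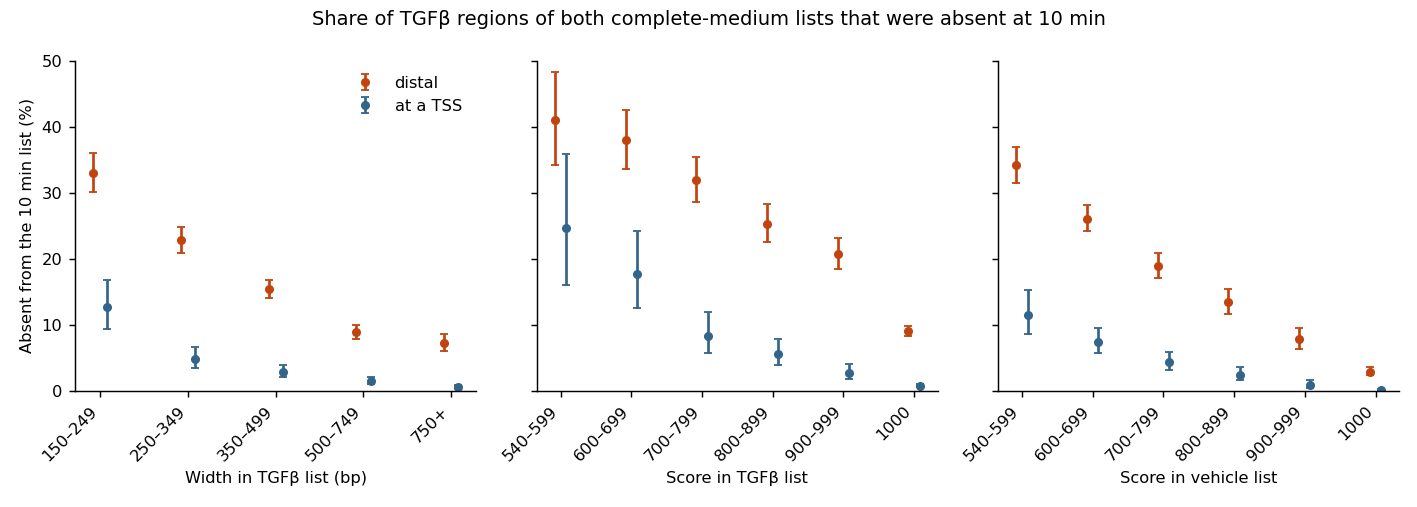
Share of TGFβ regions of both complete-medium lists that were absent from the 10 min list (%), by width in the TGFβ list, score in the TGFβ list and score in the vehicle list; points are shares of the regions in a bin, bars 95% Wilson intervals, and colours separate distal regions from those at a TSS. The share falls from left to right in each panel, and in each bin it is lower at a TSS, for example 2.92% of distal and 0.171% of TSS regions at the vehicle score cap.

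The members were distal elements. Only 173 of 1689 (10.2%, 8.89 to 11.8%) lay within 1000 bp of a TSS of any annotated transcript, whereas 8420 of the 16659 regions of all 3 lists did (50.5%). The difference was -40.3 points (-41.9 to -38.6). Put the other way, 2.01% of the 8593 TSS regions of both complete-medium lists were missing at 10 min, and 15.5% of the 9755 distal ones. TSS regions were wider and scored higher, but in each bin of width and of either score a smaller share of TSS regions than of distal regions was missing. With regions of all 3 lists weighted to the widths of members it was -28.8 points, the smallest value over the alternatives, and it kept its direction in each of them. In their position members resembled TGFβ-only regions, of which 7.75% lay at a TSS, 2.49 points fewer than members (1.06 to 4.09). Of all members, 670 (39.7%) were distal and in introns, 789 (46.7%) were intergenic and 57 (3.37%) overlapped an exon away from a TSS. A TSS was more than 50 kb away for 432 members (25.6%), compared with 11% of regions of all 3 lists, a difference of 14.6 points (12.5 to 16.8), and with 24.4% of TGFβ-only regions, a difference of 1.22 points (-0.929 to 3.47) whose interval includes 0.

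The protein-coding TSS members with the highest scores were named in the order of TGFβ score, vehicle score and width. As 40 of them shared the TGFβ cap, the order rests on the vehicle score and then the width. At Cald1 (caldesmon, which binds actin filaments, ENSMUSG00000029761.9) the member spanned 723 bp in the TGFβ list and 423 bp in the vehicle list (chr6:34548066-34548788), with the cap score in both and the nearest 10 min region 11243 bp away. Also at the cap in both lists were members at 2310016M24Rik (chr15:99554833-99555511, 538 bp from its start and over that of Gm16537), Pion (chr5:20691785-20692217), Kat2b (a histone acetyltransferase, chr17:53723255-53723491), Btn2a2 (a butyrophilin of immune regulation, chr13:23580659-23580854) and Bmp7 (a ligand of the BMP branch of the TGFβ family, chr2:172765736-172765928). These 6 were all the protein-coding TSS members at both caps. The Kat2b, Btn2a2 and Bmp7 members were small, with 237, 196 and 193 bp in the TGFβ list and 260, 219 and 172 bp in the vehicle list. The member at Hdac8 (a histone deacetylase, chrX:99700253-99700830) had a vehicle score of 997 and a TEAD match. At Hipk3 (a protein kinase, chr2:104334074-104334901) the vehicle region was wider than the TGFβ region, 1657 against 828 bp, and the nearest 10 min region was only 59 bp away, so this TSS is at the edge of the rule. In total 147 members lay at a protein-coding TSS, of 146 genes. For 95 of these the gene had a further annotated start more than 1000 bp from the member, and for 40 of the 95 that start was at a region of all 3 lists. For those 40 members, then, a start of the same gene was called in every list.

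The 8 widest members were chosen by their width in the TGFβ list. The widest, 2488 bp in the TGFβ list and 1249 bp in the vehicle list, had the cap score in both and lay in an intron of Basp1 (a membrane-bound growth-cone protein) 16196 bp from its TSS (chr15:25324836-25327323), with a TEAD match. The next, 2135 bp in an intron of Phlpp1 (a phosphatase that acts on AKT, chr1:108106047-108108181), had been 390 bp wide with vehicle. At Arhgef40 a member of 1828 bp lay at the TSS (chr14:52605275-52607102), and with vehicle it had 299 bp. The others were near Gm10260 (chr13:98611523-98613356), in an intron of Usp6nl (chr2:6279567-6281273), over an exon near Rnf181 (chr6:72320265-72321969), and at a pair of intergenic places on chromosome 13 (chr13:16830127-16831829 and chr13:16851901-16853591) 723819 and 745593 bp from the nearest protein-coding TSS, that of Inhba. All 8 were wider with TGFβ, the list they were chosen on, and 7 had the cap score in the TGFβ list, the exception being the second intergenic region with 781. Of the 8 only the Basp1 member had a TEAD match within 200 bp of its centre, and none had an AP-1 match there.

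Distal members were richer in TEAD motifs than distal regions of all 3 lists. TEAD matches within 200 bp of the centre were present in 245 of 1516 distal members (16.2%, 14.4 to 18.1%) and in 925 of 8239 distal regions of all 3 lists (11.2%, 10.6 to 11.9%), a difference of 4.93 points (3.03 to 6.98). A panel of 20 motif families was counted, at a TSS and away from it, and intervals were widened for these 40 comparisons. The widened interval for TEAD, 1.88 to 8.39, excluded 0, and of the 20 families TEAD was the only one higher in distal members. The motifs were chosen with earlier results of these data known, which the widening does not cover. In windows moved by 10 kb the TEAD share was 5.35% for members and 5.54% for regions of all 3 lists. TEAD matches were also less frequent in TGFβ-only regions (10.6%), 5.54 points below members (3.69 to 7.55). Of the classes that the 3 lists allow, the share was lowest in regions of the 10 min list alone (6.32%, 5.48 to 7.28%) and in those of the TGFβ and 10 min lists (7.91%, 7.20 to 8.69%). It was 10.7% (8.52 to 13.4%) in regions of the vehicle list alone and 11.5% (8.77 to 14.9%) in those of the vehicle and 10 min lists. Members were thus the class with the highest TEAD share, although their interval overlapped that of the vehicle and 10 min class, and the difference was tested only against regions of all 3 lists and TGFβ-only regions. CTCF matches were found in 3.17% of members (2.4 to 4.17%), near the 2.71% in regions of all 3 lists and the 3.54% in TGFβ-only regions. The share was 7.79% in regions of the TGFβ and 10 min lists and 9.11% in those of the vehicle list alone. It was 14.4% in those of the vehicle and 10 min lists and 15.6% (14.3 to 17%) in those of the 10 min list alone.

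**Figure D3:**
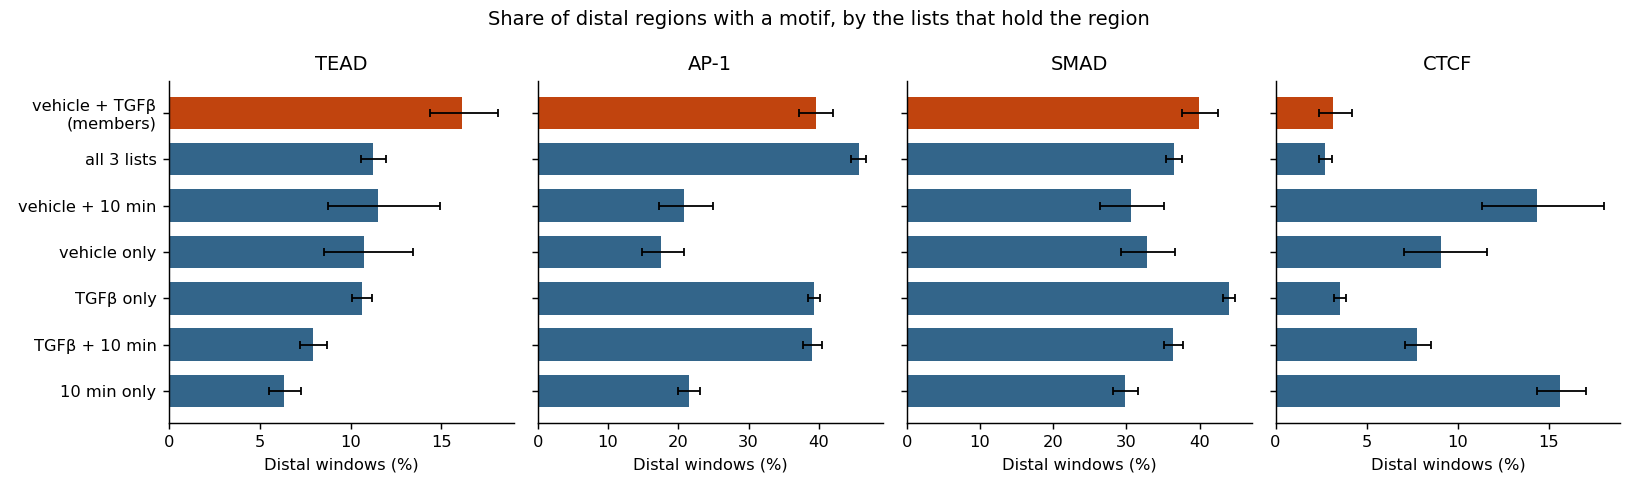
Share of distal regions (%) with a TEAD, AP-1, SMAD or CTCF match within 200 bp of the centre, for the 7 combinations of lists that can hold a region, with members on top; bars are shares and lines 95% Wilson intervals. Members have the highest TEAD share, 16.2%, while CTCF is highest in regions of the 10 min list alone, 15.6%.

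The TEAD difference was looked at in bins of 1 property at a time, and its interval included 0 in some of them. It was positive in each of 5 bins of TGFβ width, 6 bins of vehicle score, 6 bins of TGFβ score and 4 bins of GC content, with the 95% interval above 0 in 4, 5, 3 and 2 of them. Among regions at the vehicle score cap, TEAD matches were found in 18 of 82 members (22.0%) and 331 of 2724 regions of all 3 lists (12.2%), a difference of 9.80 points (2.1 to 20). In introns the shares were 16.4% and 11.1%, and between genes 16.4% and 11.4%. Members had the higher share on 14 of 20 chromosomes. Around the centre of the vehicle region in place of the TGFβ region, each class taken from the vehicle list, the shares were 17.2% and 11.6%, a difference of 5.65 points (3.72 to 7.72). The difference was smaller when the whole region was searched, in which regions of all 3 lists offered more sequence. In this case 18.1% of members and 15.3% of regions of all 3 lists had a match, and the widened interval of the difference of 2.81 points, -0.444 to 6.43, included 0. With only vehicle and TGFβ regions at or above the median score of their list, the TEAD difference was 4.50 points. The widened interval included 0 (-3.72 to 17.7), and 137 members were left.

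Matches lay near the centre. In members, 3.50% of distal regions had a TEAD match within 25 bp of the centre, 3.69% at 25 to 50 bp and 3.30% at 50 to 75 bp, compared with 1.99%, 1.89% and 1.57% in regions of all 3 lists. From 75 bp outwards the intervals overlapped, with 1.85% and 1.44% at 75 to 100 bp. The distance of the nearest match had a median of 57.5 bp in members and 82.5 bp in regions of all 3 lists. AP-1 matches were also nearest to the centre, but there the classes had like shares (11.3% and 11.5% within 25 bp), and members were lower further out (3.76% and 6.01% at 100 to 125 bp). The SMAD share was nearly flat in regions of all 3 lists, with 5.15% within 25 bp and 5.06% at 175 to 200 bp. In members it was 6.60% and 4.42%, and in TGFβ-only regions 8.87% and 5.73%.

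**Figure D4:**
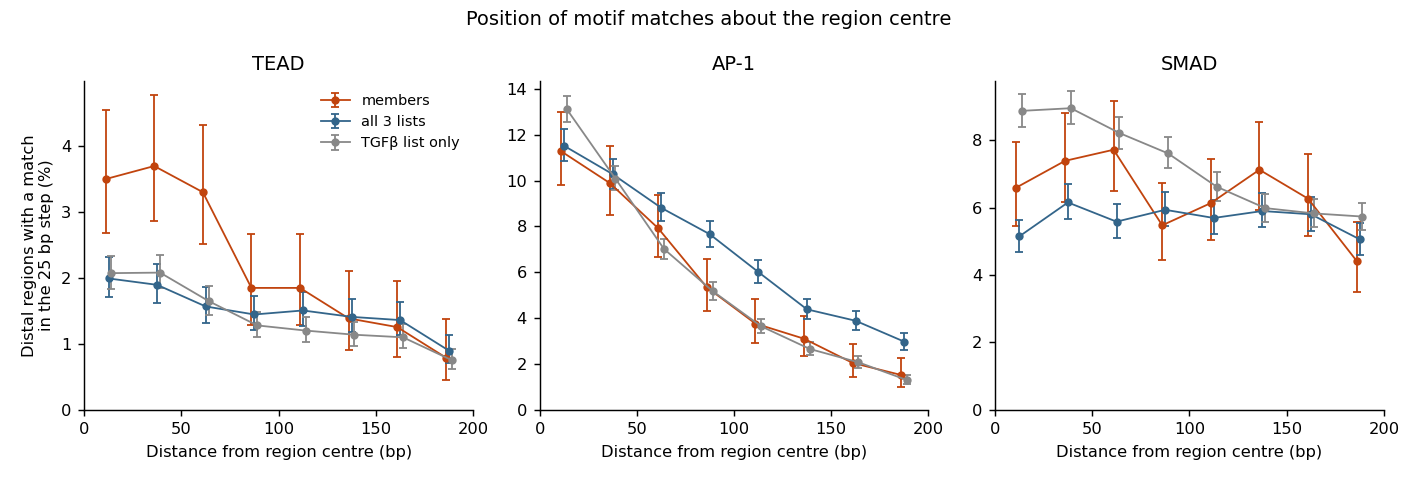
Share of distal regions (%) with a TEAD, AP-1 or SMAD match in each step of 25 bp from the region centre (x axis, bp), for members, regions of all 3 lists and TGFβ-only regions; points are shares and bars 95% Wilson intervals. For TEAD, members lie above both other classes up to 75 bp, with 3.50% against 1.99% and 2.07% in the first step.

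TEAD and AP-1 were then counted together. TEAD without AP-1 was found in 10.8% of distal members and 6.41% of distal regions of all 3 lists, a difference of 4.34 points (2.78 to 6.08). TEAD with AP-1 was found in 5.41% and 4.82%, with an interval that included 0 (-0.548 to 1.92). The excess of TEAD matches was thus seen in regions without an AP-1 match, although among regions with AP-1 it was present as well (13.7% and 10.5%, a difference of 3.13 points, 0.410 to 6.25). At least 2 TEAD matches were found in 1.58% of members and 0.850% of regions of all 3 lists, a difference of 0.733 points (0.171 to 1.52).

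AP-1 matches were less frequent in members than in regions of all 3 lists, but this depended on the score. They were present in 600 of 1516 distal members (39.6%, 37.1 to 42.1%) and in 45.7% of distal regions of all 3 lists (44.6 to 46.8%), a difference of -6.14 points (-8.80 to -3.44), with a widened interval of -10.5 to -1.67. TGFβ-only regions had 39.3%, and members were 0.285 points above them (-2.29 to 2.91). With regions of all 3 lists weighted to the TGFβ scores of members the difference was 0.0670 points (widened interval -4.51 to 4.64). Weighted to the vehicle scores it was -3.68 points (widened -8.34 to 0.985). In 4 of the 6 bins of TGFβ score the AP-1 share was higher in members, with no interval clear of 0. Within 100 bp of the centre the difference was -2.51 points, with a widened interval that included 0. At least 2 AP-1 matches were found in 5.54% of members and 10.2% of regions of all 3 lists.

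SMAD, SRF, CTCF and ETS matches did not pass the widened interval. SMAD matches were present in 40% of distal members (37.5 to 42.5%) and 36.5% of distal regions of all 3 lists, a difference of 3.46 points (0.812 to 6.16, widened -0.873 to 7.91). TGFβ-only regions had more, 44.0%, and members were 4.03 points below them (-6.62 to -1.40). The moved windows had 35.0% for members and 33.4% for regions of all 3 lists. Weighting to widths or to TGFβ scores, a narrower window or merging only touching intervals moved the SMAD difference past the threshold, at 3.71 to 5.78 points, while a search of the whole region gave -3.05 points. The CArG box was found in 3.30% of members and 2.17% of regions of all 3 lists, a difference of 1.13 points (0.269 to 2.19) that the widened interval, -0.200 to 3.01, did not separate from 0. CTCF was found in 3.17% and 2.71% (interval of the difference -0.396 to 1.52) and the ETS motif CCGGAAGT in 0.792% and 0.935% (interval of the difference -0.553 to 0.473). Among factors tied to epithelial identity and its loss, the ZEB and SNAI site CAGGTG was found in 20.4% and 23.2%, a difference of -2.81 points (-4.97 to -0.526, widened -6.30 to 1.02), and the GRHL motif (AACCGGTT, AACCAGTT or AACCTGTT) in 2.90% and 2.69% (interval of the difference -0.615 to 1.23). Forkhead matches, the sites of the insulin-regulated FOXO factors among others, were found in 8.77% and 10.5% (widened -4.05 to 1.14), and RUNX matches in 16.4% and 17.2% (widened -3.97 to 2.74).

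The other distal calls were for motifs rich in G and C. The GC box GGGCGG of SP and KLF factors was found in 7.98% of distal members and 12.9% of distal regions of all 3 lists. The difference was -4.96 points (widened -7.28 to -2.17). The TFAP2 motif GCCNNNGGC was found in 9.96% and 13.5%, a difference of -3.50 points (widened -6.05 to -0.501). After weighting to the GC content of members these differences became -1.02 and -0.809 points with widened intervals that included 0. A match to either motif itself raises the GC content of its window, so this weighting cannot separate the motifs from base composition. Under the same weighting TEAD kept its call, at 4.39 points (widened 1.11 to 7.67). So did AP-1, at -7.54 points (widened -12.0 to -3.08). The median GC content of the 400 bp windows was 45.8% in distal members and 47.8% in distal regions of all 3 lists. In bins of GC content, the share of distal regions missing at 10 min fell from 21.4% (19.1 to 24.0%) under 40% GC to 4.16% (2.61 to 6.56%) at 60% or more.

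At a TSS the members were poorer in CpG than regions of all 3 lists, though TGFβ-only regions were poorer still. The windows of members had a median GC content of 55%, against 64.5% for TSS regions of all 3 lists, and a median observed-to-expected CpG ratio of 0.435 against 0.817. TSS regions of the TGFβ list alone had 53.25% and 0.307. Of the 173, 68 had a GC content of at least 60%. The GC box was present in 77 of 173 (44.5%) and in 73.7% of TSS regions of all 3 lists, a difference of -29.2 points (widened -40.8 to -16.9). AP-1 (TGACTCA or TGAGTCA, 19.7% and 6.28%), SMAD (34.1% and 19.3%), RUNX (TGTGGTT, 9.83% and 4.30%) and forkhead (TGTTTAC, 8.09% and 3.0%) matches were higher in members, and these 4 passed the widened interval. None of the 5 differences kept its call after weighting to GC content, where they were -9.76 points for the GC box, 8.50 for AP-1, 11.2 for SMAD, 3.0 for RUNX and 3.04 for the forkhead motif. The TFAP2 motif was found in 25.4% and 37.3%, with a widened interval of the difference from -21.1 to 0.0785. TEAD matches at a TSS were found in 7.51% and 3.44%, a difference of 4.07 points (0.972 to 9.0) that the widened interval did not separate from 0.

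**Figure D5:**
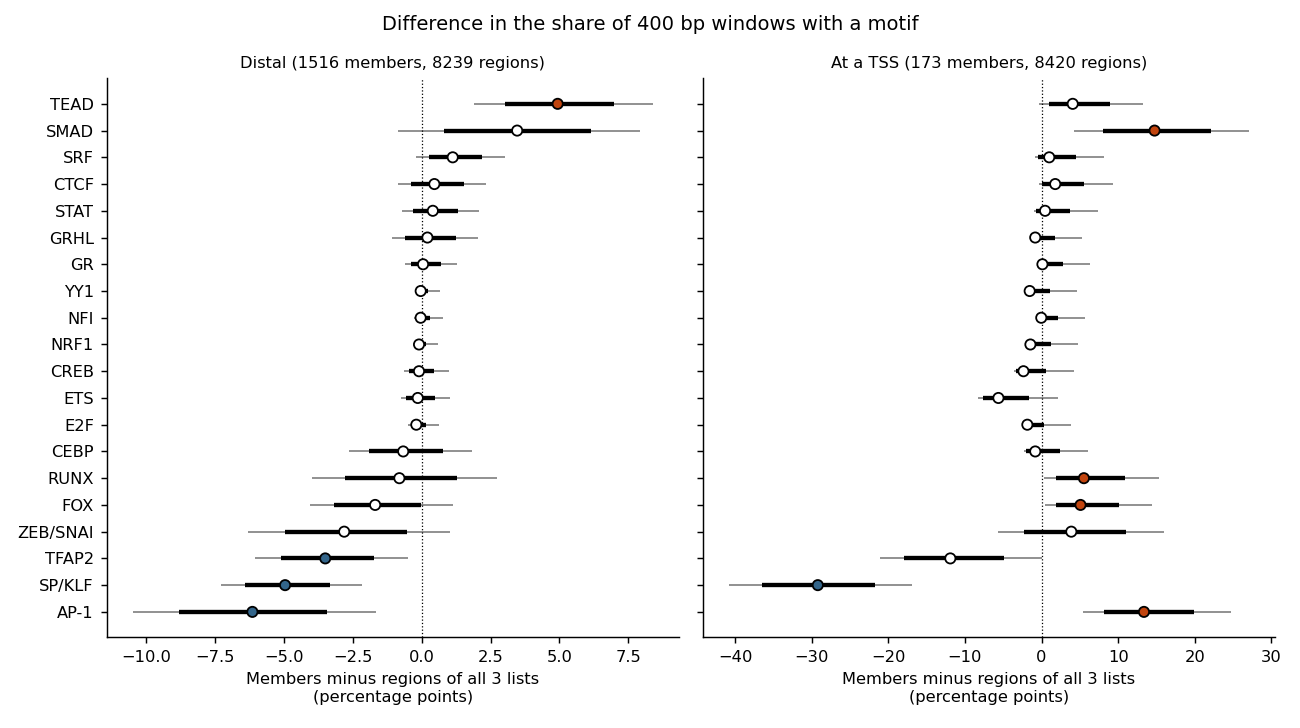
Difference in the share of windows with a motif, members minus regions of all 3 lists (x axis, percentage points), for 20 motif families (rows) in distal regions (left) and at a TSS (right); points are differences, thick lines 95% intervals and thin lines intervals widened for 40 comparisons, with filled points where the thin line excludes 0. In distal regions TEAD is the highest point, at 4.93, and AP-1 the lowest, at -6.14, whereas at a TSS AP-1 is on the other side, at 13.4.

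To see which genes the members accompany, genes were given the members inside their body or within 10 kb. Of 22350 protein-coding genes, 1109 (4.96%) had a member, and of the 12323 with any region of both complete-medium lists there 9% had one. The number per gene was low, with 993 genes having 1 member, 103 having 2 and 12 having 3. Fgfr2 had 5, but its annotated span of 3009 kb covers many other genes, so these cannot be ascribed to it. The genes with 3 that the order of summed width put first were Pcdh7 (a protocadherin), Plcb1 (phospholipase C beta), Kirrel3 (an adhesion protein), Phldb2 (a protein of the cell cortex), Cux1 (a homeobox factor), Me3 (malic enzyme) and Sgms1 (sphingomyelin synthase). At Pcdh7, Cux1 and Me3 there were fewer regions of all 3 lists than members, namely 1, 2 and 2.

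Gene lists for processes that serum and insulin drive were looked up next, each against 4.96% of all genes with a member and 9.21% of regions missing at 10 min. Long genes have more room for members, and list genes differ in length, so these counts are descriptions. Of 40 immediate-early and serum-response genes, 3 had a member. These were Ier5, Mcl1 (which protects from apoptosis) and Dusp5 (a phosphatase for ERK). At these 40 genes 3 of the 69 regions of both complete-medium lists were missing at 10 min (4.35%, 1.49 to 12.0%). Of 36 genes of cholesterol and lipid synthesis, which insulin and sterols control, none had a member, and 0 of 52 regions were missing (up to 6.88%, Wilson). Of these 52 regions 41 lay at a TSS, where 2.01% of all regions were missing, and the remaining 11 were distal. Of 41 cell cycle genes, with 48 of 56 regions at a TSS, 3 had a member: Rbl1, Ccnd3 (cyclin D3), where the member was at a TSS, and Pola1. Of the 69 serum-response regions 45 lay at a TSS. The serum-response and cell cycle intervals include 9.21%. That of the cholesterol and lipid genes lies below 9.21%, a share taken over TSS and distal regions together. As most of their regions lay at a TSS, this is not read as a result about these genes.

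Of 37 genes of insulin and FOXO signalling, 3 had a member, and 4 of 55 regions were missing (7.27%, 2.86 to 17.3%), with 37 of the 55 at a TSS. The insulin receptor adaptor Grb10 had one over an exon (chr11:11832599-11833214, 616 bp, TGFβ score 957 and vehicle score 878). Pik3r1, the regulatory subunit of PI3 kinase, had a pair of members in its introns (chr13:102487880-102488359 and chr13:102496775-102497173), both with a TEAD match, at 23534 and 32429 bp from a TSS. The third, near Akt1, lay at the TSS of its neighbour Zbtb42. Of 24 glucocorticoid targets 4 had a member, namely Timp3, Fkbp5 (266 bp, 538 bp from its TSS and with an AP-1 match), Klf9 and Tsc22d3, and 4 of 37 regions were missing (10.8%, 4.29 to 24.7%).

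Of 40 genes of the TGFβ pathway, 5 had a member: the receptors Tgfbr2 (intron, chr9:116061930-116062405, TGFβ score 861 and vehicle score 822) and Bmpr1b (5698 bp outside the gene, over an exon), the BMP target Id3, the activin antagonist Fst and the latency protein Ltbp1. Ltbp1 had 2, both with the TGFβ score cap (chr17:75518728-75519125 and chr17:75672591-75672996), beside 6 regions of all 3 lists. In this list 6 of 74 regions were missing (8.11%, 3.77 to 16.6%). Of 29 genes of the YAP and TEAD group, 5 had a member: Wwtr1, which encodes TAZ, Tead4, the phosphatase Ptpn14 (2 members), the kinase Nuak2 and Crim1. Here 6 of 73 regions were missing (8.22%, 3.82 to 16.8%), near the 9.21% of all regions. Of the 245 distal members with a TEAD match, 1 was at these genes, upstream of Ptpn14.

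Of 40 genes of epithelial junctions, 6 had a member, and 7 of 67 regions were missing (10.4%, 5.15 to 20%). They were the plakophilins Pkp1 (at a TSS, chr1:137815601-137815972), Pkp2 (chr16:16216085-16217324, 1240 bp with TGFβ and 206 bp with vehicle) and Pkp4 (2 members), the tight junction proteins Cgn and Cldn12, and the alpha-catenin Ctnna1. TEAD matches were present in 4 of the 7, at Pkp4, Cgn, Cldn12 and Ctnna1. Those at Cgn and Cldn12 lay 3878 and 8347 bp outside the gene and nearer to a start of another. This count of TEAD matches was the highest of the 8 lists and rests on few regions. Over all distal members the TEAD share was 16.2%. Over the 8 lists the share of regions missing was between 0% and 10.8%.

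Most members were not in a run with another, and the number of runs that their share alone would give was not worked out. Among TGFβ regions of both complete-medium lists taken in order along a chromosome, 1326 members stood alone between regions of all 3 lists, 149 runs had 2 members, 19 had 3 and 2 had 4. The runs of 4 spanned 452 kb on chromosome X about Pcyt1b, Pdk3 and Zfx and 1677 kb on chromosome 1 from Erbb4 to Bard1, and within them lay 2 and 4 regions of the 10 min list, respectively. The tightest run of 3 covered 17.3 kb at Phldb2 (chr16:45886716-45903998).

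By chromosome, the share of regions missing at 10 min was between 6.05% on chromosome 11 and 14.4% on chromosome X. For distal regions chromosome X stood out, with 28.8% missing (53 of 184, 22.7 to 35.7%), compared with 15.5% overall and 19.3% (14.9 to 24.8%) on chromosome 18, the next highest. The lists themselves differed in their share of X regions. For each vehicle region the 10 min list had 1.28 regions on chromosome X and 1.36 over all chromosomes, whereas the TGFβ list had 2.16 and 1.96. Neither ratio was particular to chromosome X. Chromosome 3 also had 1.28 for the 10 min list, with 18.7% of distal regions missing, and chromosome 18 had 2.20 for the TGFβ list. Without chromosome X 1625 members remained, 9.08% of regions were missing, and the TEAD difference was 5.22 points (widened 2.1 to 8.75).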

How the data were processed

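Accessible regions of NMuMG cells were analysed from 3 peak lists for 4 samples, grouped by the labels. The authors made the lists with the ENCODE ATAC-seq pipeline on mouse build mm9. Per their methods peaks were called with MACS2 2.1.2 and retained at an irreproducible discovery rate (IDR) of at most 0.05 between replicates, although the labels give 1 sample per condition; a Tn5 offset is not named for the calls. The deposited value of a peak is a score, the scaled IDR, from 540 to 1000. Lists per replicate and read counts were not analysed here.

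Intervals under 150 bp were dropped and gaps under 1000 bp merged. A region took its highest score. All peaks lay within the chromosome ends of NCBIM37 (mm9), and GENCODE vM1 of that build gave genes and transcript starts. Motifs were searched on both strands in 400 bp about the centre (20 families; CTCF, SRF, NRF1, GR, NFI, STAT and YY1 by their usual consensus; CREB as TGACGTCA, CEBP as TTGCNCAA, E2F as TTTCGCGC or TTTGGCGC; the others as printed in the report). Intervals were Wilson (shares) and Newcombe (differences) at 95%, and at 99.875% for the 40 panel comparisons; calls used the latter. For weighted differences a normal approximation was used. The functions were tested on simulated data. Python 3.11.15, pandas 2.3.3 and numpy 2.4.6 were used.

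The members, gene lists and motifs were chosen with earlier results of these data known. Named were the 8 widest members, the 8 protein-coding TSS members with the highest TGFβ score (then vehicle score, then width), members within 10 kb of listed genes, the 8 genes with most members, the longest runs, and, for sequences outside chromosome 18, the 2 highest-scoring distal members with each motif within 50 bp of the centre. Of the listed genes Hmgcs1, Cebpd, Ajuba and Tfap2c had no entry in the annotation under that name. No member was near an epithelial marker gene, and 1 was near Adipoq among the markers of other cells.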

Additional observations from a re-analysis of the deposited data

How the results depend on the processing

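No paired analysis was possible because there was 1 list for a condition and no replicate to match. Of 141 values in all under the alternatives, 107 kept their direction and side of the threshold, or stayed within their interval. The share missing at 10 min was 9.80% with no minimum width, 6.49% (829 members) with a minimum of 300 bp, 9.74% when merging only touching intervals and 1.49% (137 members) for vehicle and TGFβ regions at or above the median score. At that score limit the GC difference was -3.25 points (distal) and -13.25 points (TSS), ETS turned to 0.572, CTCF to -1.06, and TEAD (4.50) and AP-1 (-7.13) lost their calls.

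TEAD also lost it over the whole region (2.81), where SMAD (-3.05) and CTCF (-0.282) turned. AP-1 lost its call with the 300 bp minimum (-6.13), in 100 bp either side (-2.51) and weighted to vehicle scores (-3.68), and turned weighted to TGFβ scores (0.0670). SMAD passed the threshold with touching intervals merged (4.58), weighted to widths (4.74) or TGFβ scores (5.78) and in 100 bp (3.71). CTCF turned weighted to widths (-1.5), vehicle scores (-0.555) and TGFβ scores (-1.15), and ETS weighted to GC content (0.102). The causes were not tested. Weighting to scores or, in the panel, to GC content, the vehicle centre, the shorter TEAD core and leaving out chromosome X were chosen after seeing the data.

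Each 10 min library had fewer reads by the study's own listing, though which of them entered the 10 min list is not given. Read signal was not analysed here, so a region just under the calling threshold at 10 min counts as missing. Intervals treat regions as independent draws and say nothing of the spread between cultures. A motif match is a string of letters, and a family without a call is not shown to be equal between classes.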
